A study of Mus musculus with 6 samples.

Results

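The 10 genes described here encode enzymes of the methionine cycle (Bhmt, Bhmt2, Mat2a, Ahcy), of threonine and glycine breakdown (Tdh, Gcat, Gldc) and of the folate cycle (Shmt1, Shmt2, Mthfd2). They were picked by name from a table of 23999 mouse gene symbols, and all 10 were found in it. Bhmt was picked because it rose strongly in this very comparison, so its values are given as a description with no test. The other 9 belong to the same pathways, were also chosen with earlier results of these data known, and were tested together with all other genes. The cells were mouse embryonic stem cells, pluripotent cells grown from the early embryo. All 6 samples carried a floxed element called -5 and an exogenous, V5-tagged mouse Nanog. The comparison set 3 samples kept for 6 days with 4-hydroxytamoxifen (4OHT), a ligand that activates oestrogen-receptor-fused Cre recombinases, against 3 samples kept for 6 days with ethanol vehicle. The study concerns an enhancer of Nanog, going by its title. The labels name neither the Cre line nor the number of clones, nor whether the samples of a group came from separate cultures. P-values therefore measure the spread between these samples, which may be technical.

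In the methionine cycle, methionine is turned into S-adenosylmethionine, the methyl donor of most methylation reactions, and comes back to methionine by way of homocysteine. The methyl group for that return comes either from folate or from betaine, and betaine-homocysteine methyltransferase, best known from liver and kidney, uses betaine. Glycine and serine feed carbon into folate, in mitochondria by way of the glycine cleavage system and of serine hydroxymethyltransferase. Mouse embryonic stem cells are known for a strong use of threonine, which threonine dehydrogenase starts to break down in mitochondria to glycine and acetyl-CoA.

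The promoters of Bhmt and Bhmt2 are shown because these neighbouring genes had the largest differences of the 10. Both windows are RefSeq sequence of the GRCm38.p6 build and run from 250 bases before the gene's start to 50 bases after it, on the minus strand of chromosome 13, at chr13:93637709-93638008 for Bhmt and chr13:93674253-93674552 for Bhmt2. In the Bhmt window the capitals mark a match to AGATAA, the GATA motif, read on the opposite strand. In the Bhmt2 window the capitals mark the 233 bases shared with the window of Dmgdh, a gene of the same pathway that starts on the opposite strand (chr13:93674186-93674485, plus strand).
Bhmt: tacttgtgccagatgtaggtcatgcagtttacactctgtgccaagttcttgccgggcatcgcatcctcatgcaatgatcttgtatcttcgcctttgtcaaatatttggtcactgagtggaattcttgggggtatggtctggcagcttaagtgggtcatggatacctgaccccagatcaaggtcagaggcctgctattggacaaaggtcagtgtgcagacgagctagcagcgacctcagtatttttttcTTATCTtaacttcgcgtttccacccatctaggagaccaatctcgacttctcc
Bhmt2: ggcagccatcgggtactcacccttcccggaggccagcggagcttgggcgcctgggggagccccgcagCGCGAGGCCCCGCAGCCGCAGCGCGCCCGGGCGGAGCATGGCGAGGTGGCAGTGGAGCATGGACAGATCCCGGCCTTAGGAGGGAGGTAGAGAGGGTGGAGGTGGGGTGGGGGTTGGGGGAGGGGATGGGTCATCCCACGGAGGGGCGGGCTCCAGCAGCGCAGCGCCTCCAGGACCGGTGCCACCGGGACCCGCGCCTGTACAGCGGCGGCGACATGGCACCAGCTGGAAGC

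Of the 10 genes, 9 had a promoter window in the RefSeq table. A total of 4 motifs were searched on both strands. The GATA motif AGATAA was present in the Bhmt window and in none of the other 8, while 11.2% of all 32851 windows hold it. The E-box CACGTG was present in the Gcat window, against 7.15% of all windows. TGATGNAA, the CARE motif, and ATTTGCAT, the octamer, were in none of the 9 windows and are held by 3.97% and 1.74% of all windows. The Dmgdh window held none of the 4 motifs. The windows of Bhmt and Bhmt2 differed in base composition, with 48% G and C for Bhmt and 73.7% for Bhmt2.

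The libraries held 55194644, 515388 and 31307423 counts in 4OHT replicates 1 to 3, against 52250671, 20030423 and 26370388 in vehicle replicates 1 to 3. Levels are given as CPM, counts scaled to the size of each library with TMM factors. In the shallow 4OHT replicate 2, 1 read was worth 1.91 CPM, against 0.0183 to 0.0498 CPM in the other 5 libraries, so that library says little about the rare genes. Nanog, the gene whose enhancer the series is about, stood at 177, 172 and 194 CPM in 4OHT cells and at 631, 660 and 641 CPM in vehicle cells (log2 fold change -1.81, edgeR adjusted p = 1.6e-13). Transcripts of the exogenous copy may be included in these values. The 9 pluripotent cell markers, Tdh among them, summed to 6790 to 7220 CPM in 4OHT cells and 6720 to 6930 CPM in vehicle cells. Of the 9, 3 were higher and 1 lower in 4OHT cells, beside 11.9% and 10.5% of all tested genes. Sall4, Sox2 and Tdh were higher (log2 fold changes 0.54, 0.18 and 0.25, edgeR adjusted p = 4.1e-07, 0.0337 and 0.00586), and Pou5f1, which encodes a core pluripotency factor, was lower (-0.21, edgeR adjusted p = 0.014). The call of Pou5f1 was lost without vehicle replicate 2 (edgeR adjusted p = 0.0717), and that of Sox2 with DESeq2 (adjusted p = 0.0504) and without 4OHT replicate 3 or vehicle replicates 2 or 3 (edgeR adjusted p = 0.0788, 0.2 and 0.16).

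Bhmt had 362, 1 and 161 reads in 4OHT replicates 1 to 3, against 7, 7 and 3 reads in vehicle replicates 1 to 3. As CPM these were 6.61, 1.91 and 5.26 in 4OHT cells and 0.132, 0.349 and 0.114 in vehicle cells. The 4OHT libraries all stood above the vehicle libraries. The single read of 4OHT replicate 2 had an exact 95% Poisson interval of 0.0483 to 10.6 CPM, which spans the levels of both groups. The mean was 4.59 ± 2.42 CPM in 4OHT cells and 0.198 ± 0.13 CPM in vehicle cells (SD, n = 3 each), with a log2 fold change of 5.08 (SE 0.27, 95% interval 4.54 to 5.68), or 5.1 without 4OHT replicate 2. That interval takes no account of Bhmt having been picked for its rise. Even after this rise Bhmt stayed a low gene, at 0.798 CPM per kilobase of exon in 4OHT cells and 0.0344 in vehicle cells. An antisense gene, Gm15622, covers 3.25% of the exon bases of Bhmt, and whether strand was used in counting is not stated.

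Bhmt2, the neighbouring paralog, which in mammals uses S-methylmethionine to methylate homocysteine, also rose in 4OHT cells. It had 83, 5 and 51 reads in 4OHT replicates 1 to 3, against 19, 3 and 13 reads in vehicle replicates 1 to 3. Its level was 1.52, 9.55 and 1.67 CPM in 4OHT cells and 0.359, 0.149 and 0.495 CPM in vehicle cells, with no overlap between the groups. The highest 4OHT value is that of the shallow library and has an exact 95% Poisson interval of 3.1 to 22.3 CPM. This gave a log2 fold change of 2.22 with an SE of 0.34 (95% interval 1.52 to 2.95, edgeR adjusted p = 5.71e-05), and without 4OHT replicate 2 it was 2.15 (edgeR adjusted p = 0.000277). Bhmt and Bhmt2 passed the filter on low counts through their 4OHT libraries, since only 1 and 2 vehicle libraries reached its level. With no such filter the edgeR adjusted p of Bhmt2 was 6.12e-10. It was larger with DESeq2, at 0.001, and with limma-voom and quantile normalization, at 0.0262. The longest alignment of the Bhmt transcript to Bhmt2 covered 223 bases at 73.5% identity, and no other gene matched at least 50% of either transcript at 95% identity or more.

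Within a library, Bhmt took 81.3%, 16.7% and 75.9% of the pair's reads in 4OHT replicates 1 to 3, against 26.9%, 70% and 18.8% in vehicle replicates 1 to 3. The exact 95% binomial intervals were 77.4% to 84.9% and 69.6% to 81.5% in 4OHT replicates 1 and 3, but 0.421% to 64.1% in 4OHT replicate 2. They were 11.6% to 47.8%, 34.8% to 93.3% and 4.05% to 45.6% in vehicle replicates 1 to 3. The shares therefore overlapped between the groups. These intervals cover counting error only.

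Dmgdh, which encodes the mitochondrial enzyme that takes a methyl group off dimethylglycine, the product that Bhmt leaves from betaine, rose as well. It stood at 7.91, 11.5 and 7.35 CPM in 4OHT cells, against 0.983, 0.946 and 0.761 CPM in vehicle cells. The lowest 4OHT library was above the highest vehicle library, and Dmgdh had a log2 fold change of 3.08 with an SE of 0.16 (95% interval 2.74 to 3.42, edgeR adjusted p = 3.76e-11). Bhmt2 and Dmgdh share no exon bases in GENCODE vM21, although their promoter windows overlap. An antisense gene, AW495222, covers 6.3% of the exon bases of Dmgdh. Of the other steps around betaine, Aldh7a1, an aldehyde dehydrogenase that can oxidise betaine aldehyde to betaine, had a log2 fold change of -0.1 (edgeR adjusted p = 0.251). Chdh, the choline dehydrogenase that makes betaine aldehyde, was too low to be tested, with 5, 0 and 2 reads in 4OHT cells and 1, 2 and 1 reads in vehicle cells. Sardh, which takes the next methyl group off sarcosine, was not tested either and had 18, 3 and 9 reads in 4OHT cells and 12, 7 and 3 reads in vehicle cells. Gnmt, which makes sarcosine from glycine, stood at 0.257 ± 0.226 CPM in 4OHT cells and 0.421 ± 0.069 CPM in vehicle cells (log2 fold change -0.21, edgeR adjusted p = 0.72).

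Bhmt, Bhmt2 and Dmgdh lie next to each other in the RefSeq gene order of chromosome 13. The 4 protein-coding neighbours of Bhmt on each side that the count table lists were therefore looked at, a choice made after the values were seen. Apart from Bhmt2 and Dmgdh, 5 of them could be tested, and 5 were higher in 4OHT cells, against 11.9% of all tested genes. The differences were smaller than those of the 3 pathway genes. Beyond Dmgdh, Arsb, a lysosomal sulfatase gene, had 1.46, 0 and 1.21 CPM in 4OHT cells and 0.416, 0.797 and 0.343 CPM in vehicle cells (log2 fold change 1.49, edgeR adjusted p = 0.000708). Lhfpl2 had 6.93, 1.91 and 7.51 CPM in 4OHT cells and 3.84, 3.93 and 4.49 CPM in vehicle cells (0.81, edgeR adjusted p = 0.000128). For both the groups overlap through the shallow library alone. On the other side of Bhmt, Jmy, a gene for an actin nucleation and p53 cofactor, had 52.5, 57.3 and 51.3 CPM in 4OHT cells and 44.2, 44.3 and 44.1 CPM in vehicle cells (0.24, edgeR adjusted p = 0.00918). Homer1 and Mtx3 had log2 fold changes of 0.24 and 0.34 (edgeR adjusted p = 0.0383 and 0.022), and Cmya5 was too low to be tested. With DESeq2 the adjusted p was 0.25 for Jmy, 0.537 for Homer1, 0.457 for Mtx3 and 0.296 for Lhfpl2, and it was not given for Arsb. Limma-voom with quantile normalization gave 0.0638 for Arsb, 0.144 for Lhfpl2, 0.0686 for Homer1 and 0.0951 for Mtx3. When vehicle replicate 2 was left out, edgeR gave adjusted p of 0.0617 for Jmy, 0.0941 for Homer1 and 0.136 for Mtx3. It was 0.238 for Mtx3 without 4OHT replicate 1, and for Homer1 0.109 without 4OHT replicate 3 and 0.157 and 0.11 without vehicle replicates 1 and 3.

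**Figure D1:**
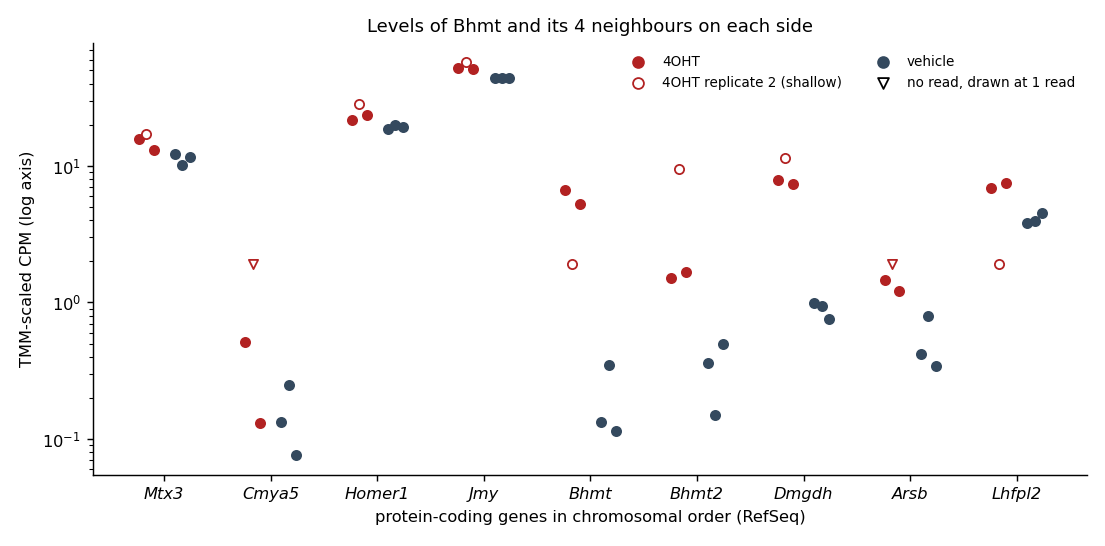
TMM-scaled CPM (log axis) of Bhmt and its 4 listed protein-coding neighbours on each side, in chromosomal order, for the 3 4OHT libraries (red, left) and the 3 vehicle libraries (dark, right) of each gene; open points are the shallow 4OHT replicate 2 and triangles a library with no read, drawn at the level of 1 read. The gap between the groups is widest at Bhmt, Bhmt2 and Dmgdh, with log2 fold changes of 5.08, 2.22 and 3.08.

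Bhmt is best known from other tissues, so markers of other cell types are given beside it. The marker lists were chosen with earlier results of these data known, so the counts of calls are a description. Of 20 primitive and visceral endoderm markers 17 were tested, and 15 were higher and none lower in 4OHT cells. Over all tested genes edgeR called 11.9% higher and 10.5% lower. Srgn and Foxa2, at 0.122 and 0.189 CPM in vehicle cells, passed the filter on low counts through their 4OHT libraries alone. At an unadjusted p of 0.05 edgeR had 16 of the 17 higher and 0 lower. DESeq2 and limma-voom each called 12 higher and 0 lower, beside 7.07% and 14.4% of all genes they tested. The summed level of all 20 markers was 523 to 588 CPM in 4OHT cells and 324 to 342 CPM in vehicle cells. Most of the vehicle sum came from Lamb1, Lama1, Col4a1 and Lrp2, at 108, 94.3, 52.4 and 47.6 CPM in vehicle cells. These rose by log2 fold changes of 0.34, 0.54, 0.74 and 0.95. Gata6, a GATA factor of that lineage, stood at 11.3 ± 0.875 CPM in 4OHT cells and 0.711 ± 0.148 CPM in vehicle cells (SD, n = 3 each). Amn and Apob of the same list did not pass (log2 fold changes 0.27 and 0.39, edgeR adjusted p = 0.323 and 0.0578). Ttr had no read in any library and Afp none in vehicle cells. Whether cells of that lineage were present or had a part in the Bhmt rise was not tested. In bulk RNA more cells with a transcript and more transcript per cell cannot be told apart. Of 8 hepatocyte markers 2 were tested and neither passed in edgeR, DESeq2 or limma-voom, although both were higher at an unadjusted p of 0.05 and, without 4OHT replicate 3, at an adjusted p of 0.05. All 8 together summed to 1.91 to 11.9 CPM in 4OHT cells and 8.02 to 8.68 CPM in vehicle cells. The low end is 1 read of Apob in the shallow library. Apob had 6.29, 1.91 and 4.7 CPM in 4OHT cells and 4.54, 3.83 and 4.07 CPM in vehicle cells. Cps1 had 5.34, 0 and 5.35 CPM in 4OHT cells and 3.57, 4.08 and 4.45 CPM in vehicle cells. Ttr, Afp, Apoa1 and Apob are on the endoderm list too. In vehicle cells Alb, Ttr, Afp, Serpina1a and Tat had no read. Alb, the albumin gene that defines hepatocytes, had 2, 0 and 0 reads in 4OHT cells. Of 10 markers of two-cell-like cells, a rare state of stem cell cultures, 10 were higher in edgeR and 5 in DESeq2. Their sums were 26.7 to 29.7 CPM in 4OHT cells and 9.07 to 10.1 CPM in vehicle cells. Zfp352 of this list, at 0.159 CPM in vehicle cells, passed the filter through its 4OHT libraries alone. Of 8 fibroblast markers 3 were tested and 1, Thy1, was lower, with sums of 8.31 to 9.55 CPM in 4OHT cells and 17.5 to 18.5 CPM in vehicle cells, and Postn had no read in any library.

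The genes whose pattern was most like that of Bhmt over the 6 libraries, by Pearson correlation of log2(CPM + 1) among 12179 genes, were Tmem231, Iars, Dab2, Inpp5d and Rusc2, with correlations of 0.996 to 0.998. A correlation of at least 0.9 was reached by 476 genes, or 3.91%. These correlations use the very Bhmt values it was picked by and follow the step between the groups, so they are a description. They take no account of the size of a change. The log2 fold changes of the 5 genes were 0.84, 0.19, 2.38, 0.66 and 0.81 in that order, against 5.08 for Bhmt. Dab2, an endocytic adaptor of the endoderm, had 12.3, 5.73 and 11 CPM in 4OHT cells and 2.27, 2.39 and 1.98 CPM in vehicle cells. Like Bhmt, Dab2 was lowest of the 4OHT libraries in the shallow one, but this rests on 3 reads of Dab2 and 1 of Bhmt. Tmem231, Iars, Inpp5d and Rusc2 were lowest there too.

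Among the 9 genes other than Bhmt, Bhmt2, Tdh and Gldc rose, none fell and 6 did not pass edgeR's test at an adjusted p of 0.05. Over all 14458 tested genes 22.4% passed, 11.9% higher and 10.5% lower in 4OHT cells. At an unadjusted p of 0.05, 4 of the 9 were higher and none lower, and DESeq2 and limma-voom with quantile normalization each also called 3 higher and 0 lower, beside 7.07% and 14.4% of all genes they tested. The median log2 fold change of the 9 was 0.11, against 0 over all tested genes. Of the 9, 3 had 4OHT libraries that all stood above the vehicle libraries and 6 overlapped, beside 14.7% of the tested genes with 4OHT above and 31.3% apart in either direction. Bhmt2, one of the 3, passed the filter on low counts through its 4OHT libraries, and the 9 were picked with earlier results of these data known, so these counts are a description.

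**Figure D2:**
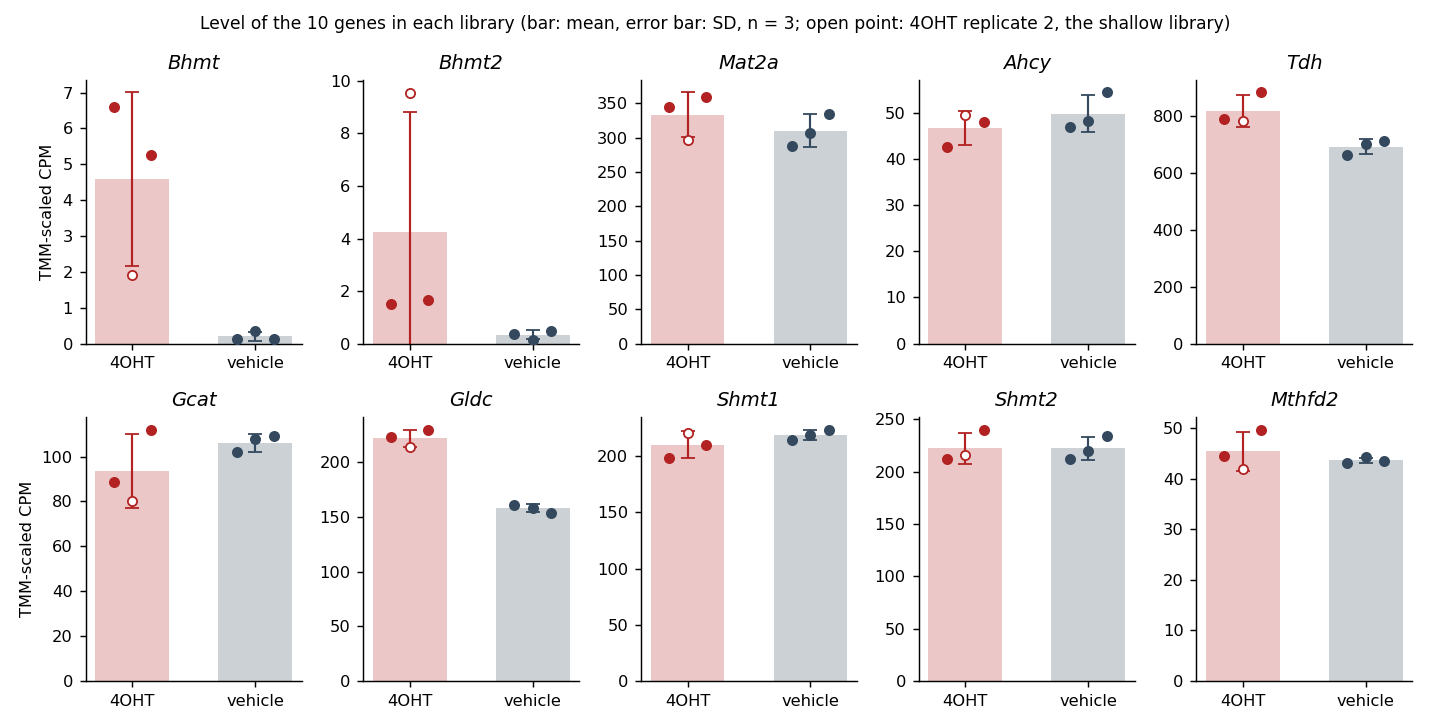
TMM-scaled CPM of each of the 10 genes in the 3 4OHT libraries (red, left) and the 3 vehicle libraries (dark, right); bars are means, error bars SDs (for Bhmt2 the lower end lies below 0 and is not drawn), and open points the shallow 4OHT replicate 2. Bhmt, Bhmt2, Tdh and Gldc are the 4 genes without overlap between the groups.

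**Figure D3:**
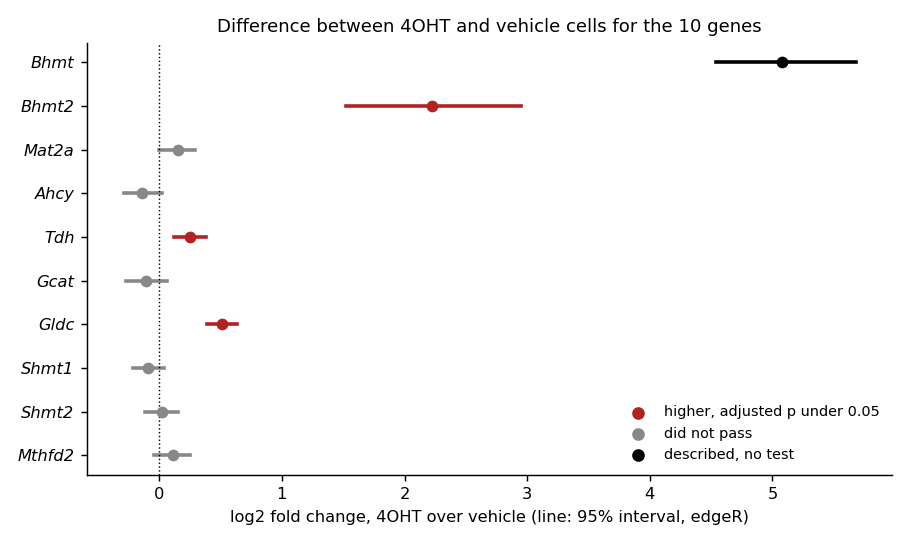
Log2 fold change of 4OHT over vehicle for the 10 genes with 95% intervals from the edgeR model. Bhmt at 5.08 is described only, Bhmt2, Tdh and Gldc passed the test, and the 6 gray genes lie between -0.14 and 0.15. The interval of Bhmt takes no account of its having been picked for its rise.

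Mat2a, the enzyme that makes S-adenosylmethionine outside the liver, stood at 344, 296 and 359 CPM in 4OHT cells and 288, 306 and 335 CPM in vehicle cells. The groups overlapped, and the log2 fold change was 0.15 (95% interval 0 to 0.29, edgeR adjusted p = 0.137). When replicate number entered as a block the adjusted p was 0.0125, in a fit that called 28.2% of all tested genes, and without 4OHT replicate 1 it was 0.0303. Its regulatory partner Mat2b stood at 97.7 ± 5.44 CPM in 4OHT cells and 110 ± 4.53 CPM in vehicle cells (log2 fold change -0.14, edgeR adjusted p = 0.118). The ratio of Mat2a to Mat2b reads within a library is not touched by scaling between libraries. It was 3.47, 3.23 and 3.51 in 4OHT replicates 1 to 3, against 2.73, 2.75 and 2.94 in vehicle replicates 1 to 3, without overlap. In the shallow 4OHT replicate 2 it rests on 155 and 48 reads. The exact 95% binomial interval of the Mat2a share there, 69.9% to 82%, covers the vehicle shares of 73.2% to 74.6%. Mat1a, the liver form, had 3, 0 and 1 reads in 4OHT cells and none in vehicle cells. The opposite-strand gene Particl covers 11.3% of the exon bases of Mat2a.

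Ahcy, which splits S-adenosylhomocysteine into adenosine and homocysteine, had 42.6, 49.6 and 48.1 CPM in 4OHT cells and 47, 48.3 and 54.5 CPM in vehicle cells. The groups overlapped, and the log2 fold change was -0.14 (95% interval -0.29 to 0.02, edgeR adjusted p = 0.22). It was -0.22 without 4OHT replicate 3 (edgeR adjusted p = 0.0197) and -0.05 without 4OHT replicate 1 (edgeR adjusted p = 0.708). Each of these leave-out fits keeps a single deep library in the 4OHT group, beside the shallow one. The Ahcy value is uncertain because long stretches of it recur in 2 other genes, Gm4737 and Gm9826, the first of which covers 81.9% of the transcript at 95% identity or more.

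Tdh, the threonine dehydrogenase that opens threonine breakdown, was by far the most abundant of the 10 genes per length. It stood at 314 ± 21.7 CPM per kilobase of exon in 4OHT cells and 265 ± 10.3 in vehicle cells (SD, n = 3 each). Its level in vehicle cells ranked 140 among 13788 tested genes with a length. By library it had 790, 785 and 885 CPM in 4OHT cells and 663, 704 and 714 CPM in vehicle cells. All 4OHT libraries stood above all vehicle libraries, by a small step, with a log2 fold change of 0.25 and an SE of 0.06 (95% interval 0.12 to 0.38, edgeR adjusted p = 0.00586). Another gene, Gm13929, matches 59.5% of the Tdh transcript at 95% identity or more, so some reads can belong to it.

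Gcat, which splits the product of threonine dehydrogenase into glycine and acetyl-CoA, did not pass the test. It had 88.7, 80.2 and 112 CPM in 4OHT cells and 102, 108 and 109 CPM in vehicle cells, with 4OHT replicate 3 above all vehicle libraries and the other two below them. The log2 fold change was -0.11 (95% interval -0.27 to 0.06, edgeR adjusted p = 0.371). It was -0.27 without 4OHT replicate 3 (edgeR adjusted p = 0.000799) and 0.04 without 4OHT replicate 1 (edgeR adjusted p = 0.724). Each of these leave-out fits keeps a single deep library in the 4OHT group, beside the shallow one. Galr3 shares 12.1% of the exon bases of Gcat on the same strand. The ratio of Tdh to Gcat reads within a library was 8.9, 9.79 and 7.92 in 4OHT replicates 1 to 3, against 6.51, 6.5 and 6.54 in vehicle replicates 1 to 3. The vehicle libraries were nearly alike in this ratio, and each 4OHT library stood above them.

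Gldc, the glycine decarboxylase that starts the glycine cleavage system, had the smallest adjusted p of the 9 tested members. It had 223, 214 and 230 CPM in 4OHT cells, against 161, 158 and 154 CPM in vehicle cells. The groups stood well apart and the replicates of each lay close together, with a log2 fold change of 0.51 and an SE of 0.06 (95% interval 0.39 to 0.63, edgeR adjusted p = 1.14e-06), or 1.43-fold. The other parts of the same complex did not rise with it. Gcsh, the lipoyl carrier protein, stood at 190 ± 14.7 CPM in 4OHT cells and 190 ± 10.2 CPM in vehicle cells (log2 fold change -0.01, 95% interval -0.15 to 0.13). Dld, the dehydrogenase shared with other complexes, had a log2 fold change of -0.02 (95% interval -0.14 to 0.09). Amt, the aminomethyltransferase that passes the carbon to folate, was lower in 4OHT cells at 76.8 ± 7.88 CPM, against 83.6 ± 2.67 CPM in vehicle cells (-0.19, edgeR adjusted p = 0.0315). That adjusted p was 0.331 with DESeq2 and 0.116 and 0.137 without vehicle replicates 2 and 3.

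Shmt1 and Shmt2, the cytosolic and mitochondrial enzymes that interconvert serine and glycine while loading folate, differed by less than the test could call. Shmt1 had 198, 221 and 210 CPM in 4OHT cells and 214, 219 and 223 CPM in vehicle cells (log2 fold change -0.09, 95% interval -0.21 to 0.04, edgeR adjusted p = 0.324). Shmt2 had 212, 216 and 240 CPM in 4OHT cells and 212, 220 and 234 CPM in vehicle cells (0.02, 95% interval -0.12 to 0.15, edgeR adjusted p = 0.886). For both the groups overlapped, and the interval of Shmt2 ends at 0.922-fold and 1.11-fold. Shmt1 took 48.2%, 50.7% and 46.7% of the pair's reads in 4OHT replicates 1 to 3, against 50.2%, 49.9% and 48.8% in vehicle replicates 1 to 3. Per kilobase of exon Shmt1 had 54 ± 3.08 CPM in 4OHT cells and 56.3 ± 1.2 in vehicle cells, and Shmt2 had 71.6 ± 4.84 in 4OHT cells and 71.3 ± 3.59 in vehicle cells. Smcr8 and Ndufa4l2, on the opposite strand, cover 4.74% of the exon bases of Shmt1 and 1.03% of those of Shmt2.

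Mthfd2, the mitochondrial dehydrogenase and cyclohydrolase of the folate cycle, had 44.5, 42 and 49.7 CPM in 4OHT cells and 43.1, 44.2 and 43.4 CPM in vehicle cells. The vehicle values lay inside the range of the 4OHT values, and the log2 fold change was 0.11 (95% interval -0.04 to 0.25, edgeR adjusted p = 0.299). It outweighed its paralog Mthfd2l in every library, taking 97.1%, 91.7% and 96.6% of the pair's reads in 4OHT replicates 1 to 3 and 96.9%, 96.4% and 96.4% in vehicle replicates 1 to 3.

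**Figure D4:**
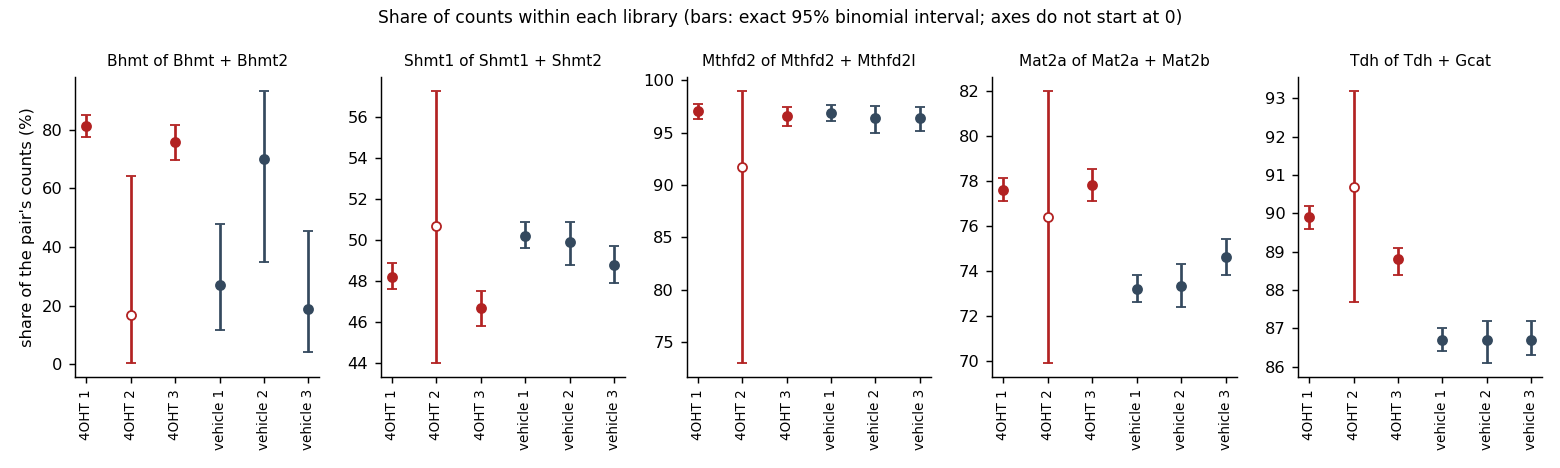
Share of the first gene in the reads of 5 gene pairs, in percent, for each 4OHT library (red, left) and vehicle library (dark, right), with exact 95% binomial intervals; open points are the shallow 4OHT replicate 2 and the axes do not start at 0. The Tdh and Mat2a shares of the 4OHT libraries all stand above those of the vehicle libraries. These are 88.8% to 90.7% against 86.7% for Tdh and 76.4% to 77.8% against 73.2% to 74.6% for Mat2a. For Mat2a the interval of the shallow library, 69.9% to 82%, covers the vehicle shares.

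Per kilobase of exon in vehicle cells the 10 genes ran in the order Tdh at 265, Shmt2 at 71.3, Mat2a at 69, Shmt1 at 56.3, Gcat at 35.6, Gldc at 25.9, Ahcy at 17.8, Mthfd2 at 12.5, Bhmt2 at 0.136 and Bhmt at 0.0344 CPM per kilobase. Shmt2 and Mat2a did not differ beyond their spread, at 68 to 75.2 and 64.1 to 74.8, and the ranges of Bhmt2 and Bhmt met at 0.0605. In 4OHT cells Gldc, at 35.1 to 37.7, no longer stood below Gcat, at 26.8 to 37.4, and their ranges overlapped. The exon lengths come from GENCODE vM21 on GRCm38, not from the annotation the reads were counted on.

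Among 73 other genes of the surrounding pathways 65 were tested, of which 9 rose and 4 fell, 20% in all, against 22.4% of all tested genes. Their median log2 fold change was 0.02, against 0 over all tested genes, and Dmgdh was the only one of the 65 to pass the test with a change of at least 2-fold. DESeq2 called 4 higher and 1 lower, where it called 7.07% of all genes it tested. Without 4OHT replicate 1 edgeR called 15 higher, and it called 2 and 1 lower without vehicle replicates 2 and 3.

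In the methionine and betaine list 1 of 11 tested genes, Dmgdh, rose and none fell, beside 11.9% and 10.5% of all tested genes. At an unadjusted p of 0.05 edgeR had 1 higher and 1 lower. DESeq2 and limma-voom each called 1 higher and 0 lower, beside 7.07% and 14.4% of all genes they tested. Besides Mat2b, the genes with the smallest adjusted p were Mtrr, which reactivates methionine synthase, and Ahcyl1, a relative of Ahcy, with log2 fold changes of 0.12 and 0.11 (edgeR adjusted p = 0.202 and 0.218). The methionine synthase gene Mtr itself, the folate-dependent route back to methionine, stood at 121 ± 7.88 CPM in 4OHT cells and 116 ± 0.664 CPM in vehicle cells (0.1, edgeR adjusted p = 0.244).

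The transsulfuration and glutathione list leads from homocysteine to cysteine and on. Of its 8 tested genes 3 rose and 1 fell, beside 11.9% and 10.5% of all tested genes. The median log2 fold change of the 8 was 0.09. Cth, the cystathionine gamma-lyase that releases cysteine, had 117, 130 and 140 CPM in 4OHT cells, against 73.8, 83.1 and 81.4 CPM in vehicle cells (log2 fold change 0.7, SE 0.07, edgeR adjusted p = 4.48e-07). Gss, the glutathione synthetase, had 22, 17.2 and 20.5 CPM in 4OHT cells, against 36.5, 34.8 and 34.9 CPM in vehicle cells (-0.74, SE 0.07, edgeR adjusted p = 2.69e-07). The groups of both genes stood apart, in opposite directions. Cdo1 and Csad, which lead from cysteine toward taurine, rose by log2 fold changes of 0.47 and 0.34 (edgeR adjusted p = 0.00131 and 0.00559), and with DESeq2 their adjusted p were 0.0738 and 0.289. Cbs, the enzyme before Cth in this route, stood at 28.8 ± 3.46 CPM in 4OHT cells and 35.3 ± 1.91 CPM in vehicle cells (-0.2, edgeR adjusted p = 0.0528). With RLE in place of TMM scaling its adjusted p was 0.0443, so that 2 genes of this list were lower.

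In the polyamine and methionine salvage list 2 of 10 tested genes rose and 1 fell, beside 11.9% and 10.5% of all tested genes. The list had a median log2 fold change of 0.06. Sms, the spermine synthase, had 80.1, 97.4 and 82.2 CPM in 4OHT cells, against 42.4, 50.5 and 45.9 CPM in vehicle cells, with no overlap (log2 fold change 0.83, SE 0.07, edgeR adjusted p = 3.99e-08). Mtap, which recovers methylthioadenosine, rose by 0.2 (edgeR adjusted p = 0.0265), and Sat1, which acetylates spermidine and spermine, fell by 0.26 on the log2 scale (edgeR adjusted p = 0.0316). Enoph1, a later salvage enzyme, had 0.18 (edgeR adjusted p = 0.0978, and 0.00644 in the blocked fit). With DESeq2 the adjusted p was 0.289 for Mtap and 0.47 for Sat1, and limma-voom gave Sat1 0.0948. Mtap had adjusted p of 0.0551 without 4OHT replicate 3 and 0.124, 0.0785 and 0.0954 without vehicle replicates 1 to 3, and Sat1 had 0.17 without 4OHT replicate 1 and 0.12 and 0.109 without vehicle replicates 2 and 3. Enoph1 had 4.76e-05 without 4OHT replicate 1. With the block 4 genes of this list were higher, and 4 were higher without 4OHT replicate 1.

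In the threonine and glycine list 1 of 10 tested genes rose and 2 fell, beside 11.9% and 10.5% of all tested genes. The list had a median log2 fold change of -0.03. Besides Amt, the threonine aldolase gene Tha1 was lower in 4OHT cells, at 0.585, 1.91 and 0.424 CPM, against 0.983, 0.797 and 1.33 CPM in vehicle cells (-0.96, edgeR adjusted p = 0.0196). The groups of Tha1 overlap through a single read in the shallow library. Alas1, which starts haem synthesis from glycine, had 38, 36.3 and 41 CPM in 4OHT cells, against 33.5, 33.6 and 34.5 CPM in vehicle cells (0.22, edgeR adjusted p = 0.0254). With DESeq2 the adjusted p was 0.759 for Tha1 and 0.478 for Alas1, and with limma-voom 0.521 and 0.0516. Without 4OHT replicate 3 they were 0.0608 and 0.0979, without vehicle replicate 3 they were 0.0944 and 0.0679, and Alas1 had 0.102 and 0.13 without vehicle replicates 1 and 2. Gamt, which makes creatine from a glycine-derived precursor, had 0.6 (edgeR adjusted p = 0.153), and 1.09 with an adjusted p of 0.00462 without 4OHT replicate 1. The serine synthesis genes Phgdh, Psat1 and Psph had log2 fold changes of -0.07, 0.01 and -0.03 (edgeR adjusted p = 0.413, 0.926 and 0.827). None of these 3 passed in edgeR, DESeq2 or limma-voom, and at an unadjusted p of 0.05 edgeR had 0 as well.

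In the folate list 2 of 16 tested genes rose and none fell, beside 11.9% and 10.5% of all tested genes. The list had a median log2 fold change of 0.02. At an unadjusted p of 0.05 edgeR had 3 higher and 2 lower. DESeq2 called 1 and 0, limma-voom 2 and 0, and the blocked fit 3 and 1. These alternatives called 7.07%, 14.4% and 28.2% of all genes they tested. Mthfd1, the cytosolic enzyme with several folate activities, had 498, 500 and 458 CPM in 4OHT cells, against 390, 372 and 374 CPM in vehicle cells, without overlap (log2 fold change 0.35, SE 0.06, edgeR adjusted p = 0.000189). The folate receptor gene Folr1 had 45.6, 42 and 49.1 CPM in 4OHT cells and 36.6, 40 and 37.9 CPM in vehicle cells (0.31, edgeR adjusted p = 0.0025, and 0.149 with DESeq2). Aldh1l2, a mitochondrial formyl-folate dehydrogenase, had 0.5 (edgeR adjusted p = 0.0521), and 0.55 with an adjusted p of 0.0289 in the blocked fit. Its adjusted p was 0.044 with no filter on low counts and 0.0109 without 4OHT replicate 3. Mthfd1l, the mitochondrial enzyme that releases formate from formyl-folate, stood at 138 ± 23.8 CPM in 4OHT cells and 165 ± 0.818 CPM in vehicle cells (-0.15, edgeR adjusted p = 0.111, and 0.0141 in the blocked fit). Purine synthesis takes its ring atoms in part from glycine and formyl-folate. Of its 7 tested genes none passed in edgeR or DESeq2, and limma-voom called 0 higher and 2 lower. These fits called 22.4%, 7.07% and 14.4% of all genes they tested. At an unadjusted p of 0.05 edgeR had 1 of the 7 higher and 1 lower. The log2 fold changes of the 7 ran from -0.14 for Adsl to 0.15 for Prps1. In the blocked fit the adjusted p was 0.0404 for Adsl and 0.00644 for Prps1, and Prps1 had 0.00138 without 4OHT replicate 1. Gart and Atic had log2 fold changes of -0.1 and -0.08 (edgeR adjusted p = 0.267 and 0.464). Limma-voom called Adsl and Gart lower (adjusted p = 0.0431 and 0.0371).

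**Figure D5:**
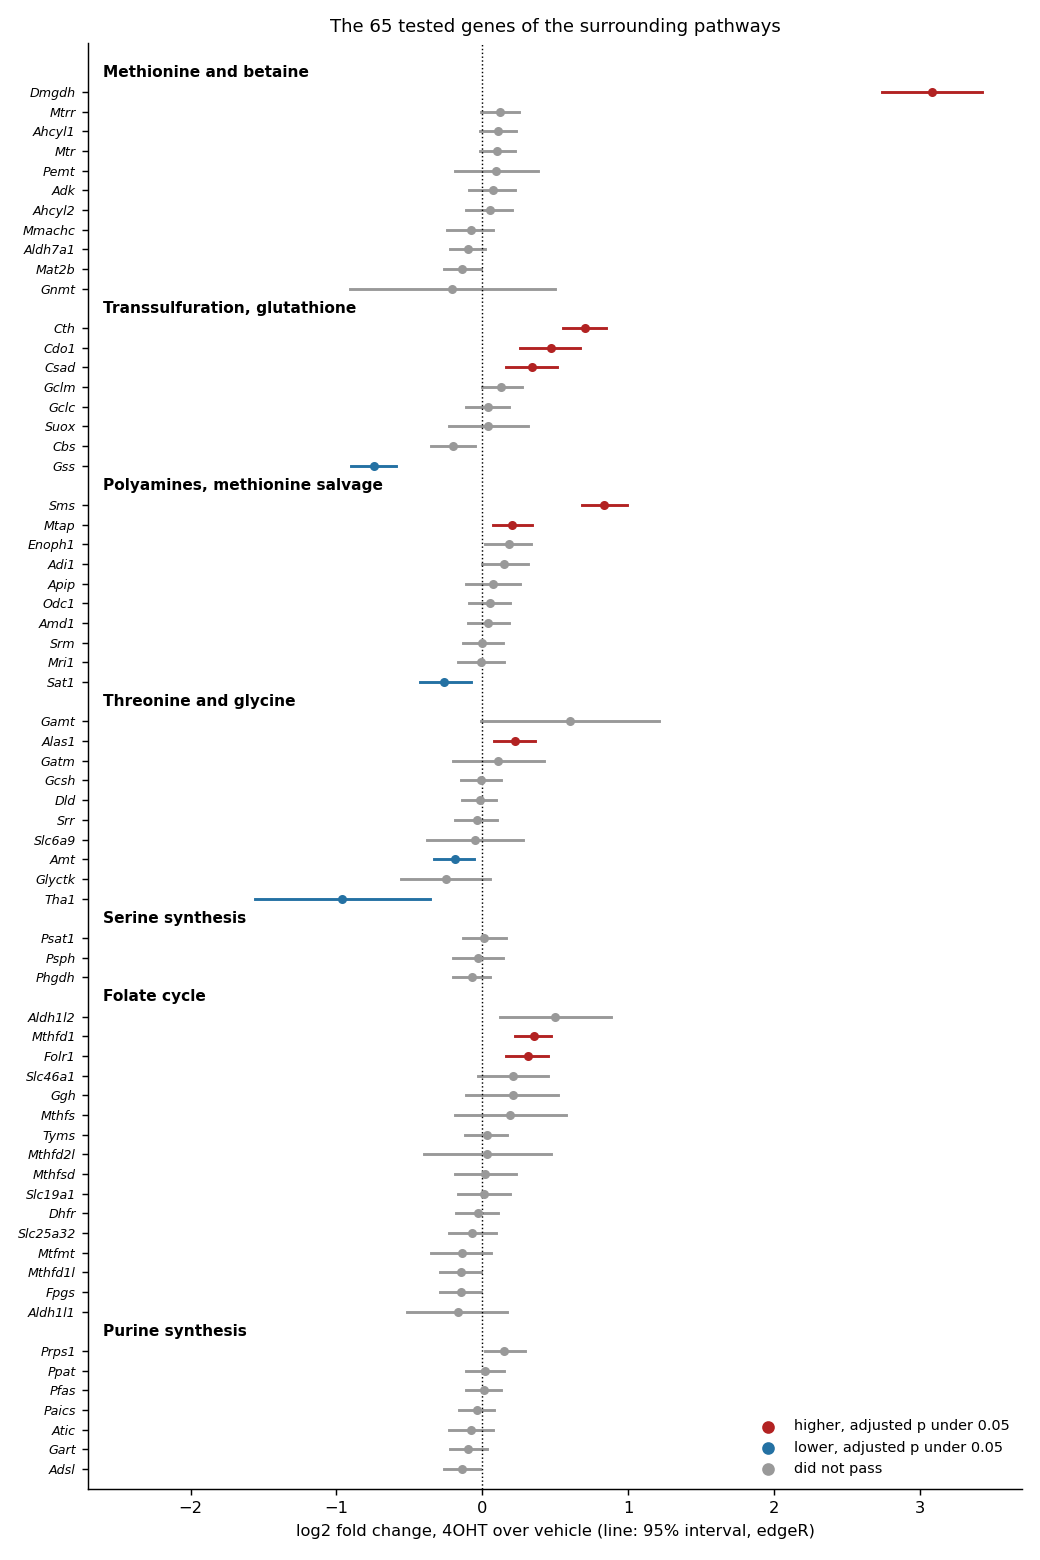
Log2 fold change of 4OHT over vehicle with 95% intervals (edgeR) for the 65 tested genes of 7 surrounding pathway lists, sorted within each list; red genes were higher and blue genes lower at an adjusted p under 0.05. Dmgdh at 3.08 stands apart, and Sms at 0.83, Cth at 0.7 and Gss at -0.74 are the next with narrow intervals.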

How the data were processed

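Per the labels' protocols, libraries of polyadenylated RNA were made with a NEBNext Ultra kit. The authors deposited whole-number read counts per gene symbol. STAR, DESeq and the mm9 build are named in the submitters' processing notes with no versions. Counting tool, annotation and strand setting were not given in the sources used here. Column names matched the sample titles, which also gave the groups.

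Counts were tested with edgeR 4.0.16 (R 4.3.3): filterByExpr (minimum count 10), TMM scaling, a quasi-likelihood fit with treatment as the only term, and Benjamini-Hochberg adjustment over 14458 genes, threshold 0.05. Fold changes use a prior count of 0.125, and intervals are at the 95% level. The procedure was tested on simulated data, where it recovered 73.2% of 1.5-fold and 93.6% of 2-fold changes. Changes below 1.5-fold were not simulated. The members, pathway lists and marker lists were chosen with earlier results of these data known. From each pathway list up to 4 genes with the smallest adjusted p were named. Cbs, Mtr, Aldh7a1, Gnmt, Gcsh and Dld were added for their place in the pathway after their values were seen. A gene of the folate list is not reported here. Alternatives were DESeq2 1.42.0, RLE scaling, limma-voom (limma 3.58.1) with quantile normalization, other filters, each library left out, and the replicate number as a block. Same-numbered samples' deviations from their group means correlated at 0.57, 0.15 and 0.39 over 3632 genes for replicates 1 to 3, all above 0.1, which is the source of the pairing. No label states what the numbers mark, and vehicle replicate 2 correlated more with 4OHT replicate 3, at 0.45. Pairing by number is therefore not established, and values of the blocked fit are given as an alternative only. No library pair of a group agreed within sampling noise. Copies were searched with blastn 2.17.0.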

Additional observations from a re-analysis of the deposited data

How the results depend on the processing

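The log2 fold change of Bhmt was 4.52 with limma-voom and quantile normalization and 4.74 to 5.5 when each library was left out in turn. Over all tested genes DESeq2 called 552 higher and 392 lower and limma-voom 1120 higher and 968 lower, against 1719 and 1514 in edgeR; the cause was not tested. Among the 9 members other than Bhmt, leaving out each library gave 3 to 4 higher and 0 to 2 lower, the 2 being Ahcy and Gcat without 4OHT replicate 3. No member lost its call under these alternatives, except that Bhmt2 was not tested at a mean count of at least 50. For the other pathway genes DESeq2 called 4 higher and 1 lower, and leaving out each library gave 7 to 15 higher and 1 to 4 lower. Of the members and named pathway genes none changed sign while called. With the replicate block 4 members were higher, Mat2a being added, and 13 other pathway genes were higher and 6 lower; beyond the genes named with a block value no call of a named member or pathway gene changed. Depth limits Bhmt and Bhmt2 most, since 3 reads in 4OHT replicate 2 amount to 5.73 CPM. The ratio of Mat2a to Mat2b per length was 3.87, 3.6 and 3.91 in 4OHT cells and 3.05, 3.07 and 3.28 in vehicle cells with all exon bases, and lower with the longest transcript (2.35 to 2.55 and 1.99 to 2.14).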
